A study of Homo sapiens with 6 samples.

Results

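The 10 genes described here act on vitamin D, carry it or take it up: CYP27B1, CYP2R1, CYP27A1, CYP3A4, CYP3A5, GC, CUBN, LRP2, FDXR and FDX1. They were chosen by role, as the hydroxylases of vitamin D, the mitochondrial proteins that pass electrons to some of them, the carrier protein in plasma and the receptors that take the carrier up. Each of the 10 had its own row among the 33451 genes of the count table, and 6 of them held enough reads to be tested. The cells were MDA-MB-453, an established human breast cancer line, studied by stranded mRNA sequencing. In the experimental group (EG), cells were grown for 5 days with 100 nM 25-hydroxyvitamin D, written 25(OH)D. In the control group (CG), they were grown for the same time with alcohol, the solvent. Each group had 3 libraries, all groups came from the same line in serum-containing medium, and the labels name no genetic change in either. The comparison asks whether culture with 25(OH)D changed the mRNA of the genes that would act on it or bring it into the cell.

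Vitamin D becomes active in a pair of hydroxylation steps. Enzymes such as CYP2R1 and CYP27A1, mainly in liver, make 25(OH)D, the circulating form, and CYP27B1, best known from the proximal tubule of the kidney, turns it into 1,25(OH)2D, the ligand of the vitamin D receptor VDR. CYP27B1 and CYP27A1 lie in mitochondria and receive electrons from NADPH through ferredoxin reductase (FDXR) and ferredoxin (FDX1), whereas CYP2R1 and the CYP3A enzymes lie in the endoplasmic reticulum and use the reductase POR. In plasma, 25(OH)D travels bound to the protein encoded by GC, and kidney cells take up this complex with megalin (LRP2) and cubilin (CUBN).

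LRP2 was the only gene of the 10 that changed at an adjusted p under 0.05, and it was higher in EG, by 1.89-fold. CYP27B1, the enzyme that activates 25(OH)D, was at 5.31 ± 0.337 CPM (SD, n = 3) in CG and 5.06 ± 0.697 CPM (SD, n = 3) in EG, where CPM is the count scaled to a common library size with the TMM factors of edgeR. So 1 of the 6 tested genes was called higher and 0 were called lower, where 33.8% of all 18183 genes tested were called, 17.3% as higher and 16.5% as lower. The tool was the quasi-likelihood test of edgeR with Benjamini-Hochberg adjustment over all genes tested, and at an unadjusted p under 0.05 the counts were the same, 1 higher and 0 lower, against 42.2% of all genes tested. DESeq2 also called LRP2 alone. The call of LRP2 was lost in 5 of 14 other settings, namely both limma fits on log2 RPKM values and the omission of CG replicate 1, EG replicate 2 or EG replicate 3, and at the fold limit of the study. CYP27A1, CYP3A4, GC and CUBN had too few reads to be tested.

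The libraries held between 33268860 and 40928176 counts. Pairs of libraries within a group differed by more than sampling noise, with a chi-square per gene between 3.85 and 11.2. The study calls its replicates biological but does not say how the cultures were separated, so the p-values measure only the spread between these libraries, which may be technical. Mitochondrial genes took 7.85% to 7.99% of the counts in CG and 8.89% to 9.24% in EG. The 6 luminal markers reported here (KRT8, KRT18, EPCAM, ERBB2, FOXA1 and GATA3) were all detected, with a summed level of 764 to 783 RPKM in CG and 755 to 762 RPKM in EG, where RPKM is the count scaled to gene length and library total. Within this sum the genes moved apart, with KRT8, KRT18 and ERBB2 called higher (log2 fold changes 0.14, 0.10 and 0.22), and FOXA1 and GATA3, both transcription factors of luminal cells, called lower (-0.46 and -0.80, adjusted p = 1.51e-05 and 8.56e-10 by edgeR). Of the other cell types, hepatocyte markers summed to at most 0.394 RPKM in any library, with APOA1 at 0 in every CG library. Kidney tubule markers summed to between 4.46 and 4.88 RPKM, nearly all of it SLC5A2, which shares 1390 of its 4468 exon bases with C16orf58 on the opposite strand, and the other markers had at most 10 counts in a library. The fibroblast markers summed to 3.74 to 4.03 RPKM in CG and 3.19 to 3.47 RPKM in EG, mostly COL1A1, with at most 16 counts for the others. Blood cell markers summed to 1.95 to 2.79 RPKM in CG and 6.21 to 8.88 RPKM in EG, mostly CD68, with at most 14 counts for the others. CD68 was called higher, with a log2 fold change of 1.69 (adjusted p = 8.16e-07 by edgeR). Of its 2189 exon bases, 1789 lie in another listed gene on the same strand, RP11-186B7.4, which was called lower (-0.13, adjusted p = 0.0355 by edgeR). The part of these markers in the results was not tested. In bulk RNA, a change in the number of cells that express a gene and a change in RNA per cell cannot be told apart.

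CYP27B1, the enzyme for which 25(OH)D is the substrate, lies on chromosome 12 (57762334 to 57768986, minus strand, GRCh38). The study's own PCR assay for CYP27B1 compared breast cancer lines with an immortalised breast line, and no use of it on EG and CG is described. Its primers are shown because the assay and the reads address the same mRNA. Both are written 5′ to 3′ in lower case, with no base singled out.
CYP27B1 forward primer: gtccagacagcactccactc
CYP27B1 reverse primer: atttggctctgggaactggg
Matched to GENCODE 29 transcripts, the forward primer lies in coding exon 6 (chr12:57764480-57764499) and the reverse primer in coding exon 8 (chr12:57763746-57763765). They span 264 bases of an annotated transcript, and 2 of the 7 annotated transcripts hold both sites. The counts described here take in all exons of the gene, so they are not limited to those transcripts.

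CYP27B1 had 205, 209 and 202 counts in CG and 195, 207 and 139 counts in EG. The third EG library was the lowest of the 6, and the others were close together. On the CPM scale the values were 4.92, 5.52 and 5.48 in CG and 5.54, 5.38 and 4.26 in EG, so the groups overlapped. The log2 fold change was -0.065 (SE 0.138, adjusted p = 0.761 by the quasi-likelihood test of edgeR, Benjamini-Hochberg adjusted). Its 95% interval ran from -0.36 to 0.23, that is from 0.779-fold to 1.17-fold. A change as large as that of VDR, described below, lay outside this interval. Of the exon bases of CYP27B1, 107 also belong to METTL1 on the same strand, a methyltransferase of tRNA, whose own log2 fold change was -0.13 (SE 0.115, adjusted p = 0.415 by edgeR).

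CYP2R1, the microsomal 25-hydroxylase (chromosome 11, 14877440 to 14892252, minus strand), had 262, 215 and 218 counts in CG and 216, 270 and 241 in EG. In CPM these were 6.29, 5.68 and 5.92 in CG and 6.14, 7.02 and 7.39 in EG. The groups overlapped through the first EG library, which was below the highest CG library, and the other 2 EG libraries were the highest of all. The log2 fold change was 0.20 (SE 0.119, 95% interval -0.057 to 0.45, adjusted p = 0.227 by edgeR), so the interval reached up to 1.37-fold.

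CYP27A1, the mitochondrial sterol 27-hydroxylase that can also hydroxylate vitamin D (chromosome 2, 218781749 to 218815293, plus strand), was close to the limit of detection. It had 11, 6 and 6 counts in CG and 11, 15 and 8 counts in EG, and did not pass the filter on low counts. The groups overlapped, with 23 counts in all in CG and 34 in EG. After scaling for depth the ratio of EG to CG was 1.57, with an exact binomial 95% interval of 0.899 to 2.79 that covers counting error only. The exact two-sided permutation test of 3 libraries against 3 gave p = 0.2, where 0.1 is the smallest p it can give.

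The electron carriers were the most abundant of the 10 genes. FDXR (chromosome 17, 74862497 to 74873031, minus strand), the flavoprotein that takes electrons from NADPH, had 1774, 1657 and 1737 counts in CG and 1582, 1727 and 1485 in EG. After scaling, it was at 42.6, 43.8 and 47.1 CPM in CG and at 45.0, 44.9 and 45.5 CPM in EG. The EG values lay inside the range of CG and spread less, with an SD of 0.355 CPM against 2.37 CPM. The log2 fold change was 0.021 (SE 0.0568, adjusted p = 0.817 by edgeR), and the 95% interval of 0.932-fold to 1.10-fold was the narrowest among the 6 tested genes of the 10.

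FDX1 (chromosome 11, 110429883 to 110464881, plus strand), the iron-sulfur protein that hands electrons from FDXR to the mitochondrial P450 enzymes, had 362, 218 and 224 counts in CG and 230, 230 and 310 in EG. The corresponding CPM values were 8.69, 5.76 and 6.08 in CG and 6.54, 5.98 and 9.51 in EG. In each group 1 library stood above the other 2, the first of CG and the third of EG, so the spread within groups was larger than the difference between them. The log2 fold change was 0.093 (SE 0.185, 95% interval -0.30 to 0.49, adjusted p = 0.744 by edgeR). FDX1 was measured less exactly than FDXR, although both were well detected.

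**Figure D1:**
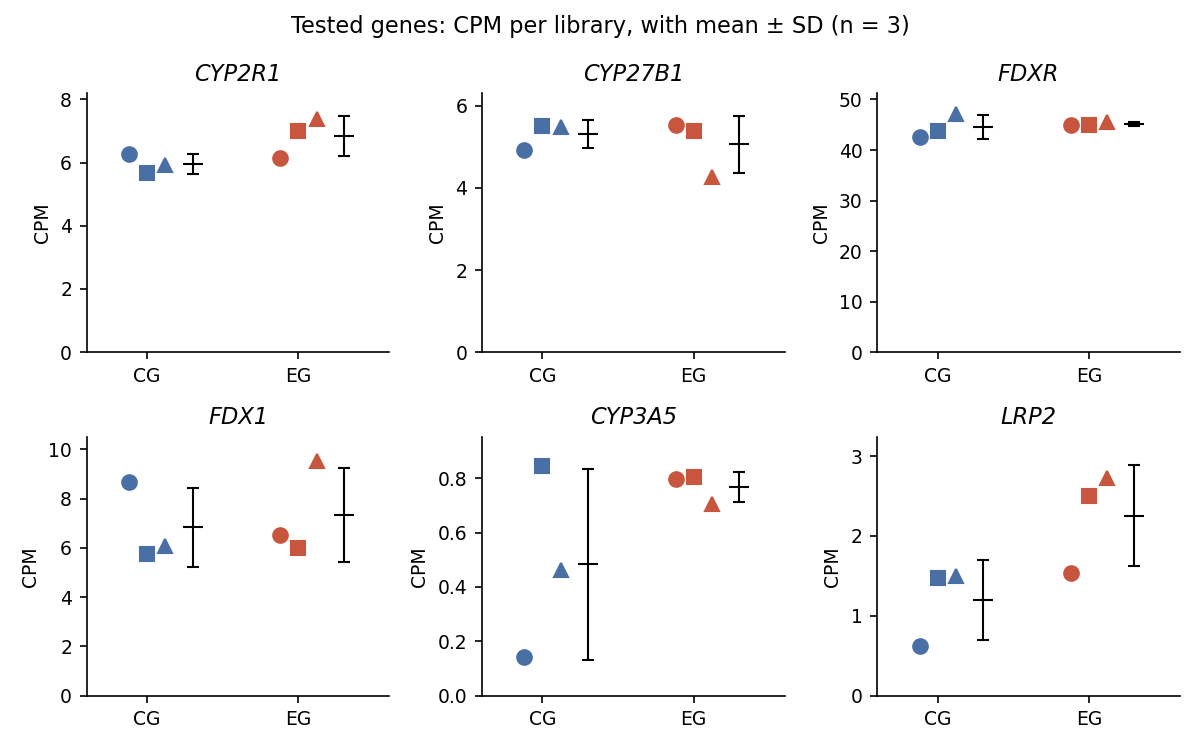
CPM (vertical axis, from 0) of the 6 tested genes in each CG (blue) and EG (red) library, with a circle, square and triangle for replicates 1, 2 and 3 and a black bar for the mean ± SD (n = 3). LRP2 is the only gene whose EG values all lie above the CG values, and the gap is narrow, from 1.49 to 1.54 CPM, while FDX1 has 1 high library in each group.

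CYP3A4 and CYP3A5, genes of the same cluster on chromosome 7, encode enzymes of drug and steroid metabolism that also inactivate vitamin D metabolites. In liver and intestine, CYP3A4 is a known target of VDR and of the related receptor PXR, which bind an everted repeat of 2 hexamers. These elements are shown because they are the only such repeats in the promoters found for these genes, with the 2 hexamers in capitals. The sequences are RefSeq promoters of GRCh38.p14, written 5′ to 3′ on the minus strand, the strand of both genes.
CYP3A4: agaataTGAACTcaaaggAGGTCAgtgagt
CYP3A5: agaacaTGAACTcaaaagAGGTCAgcaaag
The first spans chr7:99784330-99784359 and the second chr7:99680086-99680115, and the capitals begin 169 and 113 bases before the RefSeq start on which each promoter is placed, which is not the gene end given by the count table. The 18-base elements share 17 bases and differ by G11A, counted from 1 at the 5′ end of the first hexamer and written from CYP3A4 to CYP3A5. The repeat, TGAACT followed after any 6 bases by AGGTCA, was searched on both strands and occurs in 3 of 35116 promoters of the table, or 0.00854%, of which the third is that of ITGB1BP2. A direct repeat with 3 bases between, made of the hexamer AGGTCA, the hexamer AGTTCA, the hexamer GGGTCA or the hexamer GGTTCA in any combination, searched on both strands, was in 0.074% of promoters and in none of the 11 promoters listed for 8 of the 10 genes. A single such hexamer was in 38.6% of promoters, and these matches describe letters only.

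CYP3A5 (99648194 to 99679998, minus strand) had 6, 32 and 17 counts in CG and 28, 31 and 23 in EG. The EG libraries were alike, at 0.796, 0.806 and 0.705 CPM, whereas the CG libraries ran from 0.144 to 0.845 CPM and overlapped them. Its log2 fold change was 0.68 (SE 0.484, 95% interval -0.36 to 1.72, adjusted p = 0.313 by edgeR). The estimate moved with single control libraries, to 0.24 without CG replicate 1 and to 1.37 without CG replicate 2, and was not called in either case. CYP3A4 (99756960 to 99784265, minus strand) had 3, 1 and 2 counts in CG and 0, 1 and 0 in EG. No library held more than 3 counts, so no fold was computed, and a difference was not detectable at this depth.

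GC, the plasma carrier made by hepatocytes (chromosome 4, 71741693 to 71804041, minus strand), had 6, 6 and 2 counts in CG and 4, 0 and 4 in EG. The groups overlapped, with a ratio of EG to CG of 0.607 and an exact binomial 95% interval of 0.221 to 1.55 for counting error. The exact two-sided permutation test gave p = 0.5 for 3 libraries against 3.

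LRP2, or megalin (chromosome 2, 169127109 to 169362685, minus strand), is a very large endocytic receptor that takes up the carrier protein with its vitamin D. It had 26, 56 and 55 counts in CG and 54, 96 and 89 in EG. The first CG library was the lowest of the 6, and EG replicates 2 and 3 were the highest. In CPM, LRP2 was at 0.624, 1.48 and 1.49 in CG and at 1.54, 2.49 and 2.73 in EG, so the groups did not overlap, as was the case for 45.7% of all genes tested, with EG higher in 22.8% and lower in 22.9%. The gap was small, and on the RPKM scale the highest CG library, at 0.0927, met the lowest EG library, also at 0.0927. The mean rose from 1.20 ± 0.498 CPM in CG to 2.25 ± 0.633 CPM in EG (SD, n = 3 each). Its log2 fold change was 0.92 (SE 0.320, adjusted p = 0.0395 by the quasi-likelihood test of edgeR, Benjamini-Hochberg adjusted), with a 95% interval of 1.17-fold to 3.04-fold. The call was lost without CG replicate 1, where the log2 fold change was 0.60 (adjusted p = 0.121 by edgeR). It was also lost without EG replicate 2 (0.84, adjusted p = 0.117) and without EG replicate 3 (0.77, adjusted p = 0.117), and with limma on log2 RPKM values. With the limits of the study, which ask for a log2 fold change beyond 1 in size and an unadjusted p under 0.05, LRP2 was not called. At these limits 6.65% of all genes tested were called, 4.02% as higher and 2.63% as lower.

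The 250 bases before the RefSeq start of LRP2 (chr2:169362535-169362784, minus strand, GRCh38.p14) are shown because LRP2 is the gene of the 10 that rose. None of the 4 hexamers occurs in it, so no base is in capitals.
LRP2 upstream: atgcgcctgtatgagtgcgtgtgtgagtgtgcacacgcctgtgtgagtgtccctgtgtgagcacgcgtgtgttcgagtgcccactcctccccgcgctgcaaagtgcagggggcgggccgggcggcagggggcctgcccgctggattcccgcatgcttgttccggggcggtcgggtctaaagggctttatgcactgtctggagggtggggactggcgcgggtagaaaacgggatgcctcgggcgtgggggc
With the 50 bases after the start, this window had a GC content of 65.3%. The gene end given by the count table, 169362685, lies inside the 250 bases, so part of them falls within the gene as counted here. The absence of these letters from the window says nothing of other parts of the gene.

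CUBN, or cubilin (chromosome 10, 16823964 to 17129831, minus strand), the partner of LRP2 in the kidney, was nearly absent from these libraries, with 2 counts in the first CG library and 0 in the other 5. The upper limit that a count of 0 allows over the 3 EG libraries was 0.0278 CPM. Thus of the pair that takes up the carrier in kidney, only the LRP2 transcript was measurable.

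On the RPKM scale, which is per length and so allows levels of different genes to be compared, FDXR was first, at 12.6 ± 0.610 RPKM in CG and 12.3 ± 0.0716 RPKM in EG (SD, n = 3 each). FDX1 followed at 2.17 ± 0.514 and 2.25 ± 0.571 RPKM. FDXR exceeded FDX1 in every library, and FDX1 exceeded CYP27B1 in the ranges of both groups. CYP27B1 was at 1.57 ± 0.0964 RPKM in CG and 1.45 ± 0.204 RPKM in EG. CYP2R1 was at 1.34 ± 0.0702 and 1.49 ± 0.141 RPKM. The ranges of CYP27B1 and CYP2R1 were apart in CG, with CYP27B1 above, and overlapped in EG, where the mean of CYP2R1 was the higher. Within the EG libraries the ratio of CYP27B1 to CYP2R1 was 1.19, 1.01 and 0.757, so their order in EG is not settled. Below them came a wide gap, since the mean of CYP2R1 was 17.9-fold that of LRP2 in CG and 10.9-fold in EG.

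LRP2, at 0.0748 ± 0.0309 RPKM in CG and 0.137 ± 0.0384 RPKM in EG, headed the low genes. CYP3A5 was at 0.0730 ± 0.0531 and 0.113 ± 0.00862 RPKM, and CYP27A1 at 0.0664 ± 0.0205 and 0.104 ± 0.0246 RPKM. The ranges of LRP2 and CYP3A5, and of CYP3A5 and CYP27A1, overlapped in both groups, so their order is not settled. GC had 0.0508 ± 0.0242 and 0.0325 ± 0.0282 RPKM, and its range met that of CYP27A1 in CG but not in EG. Among all listed genes the mean level of FDXR was at percentile 89.4, FDX1 at 69.0, CYP27B1 at 64.6 and CYP2R1 at 63.9. The uptake receptor LRP2 was at percentile 38.2, CYP3A5 at 36.9, CYP27A1 at 35.9, GC at 27.8 and CYP3A4 at 11.6, and CUBN was below 1.

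**Figure D2:**
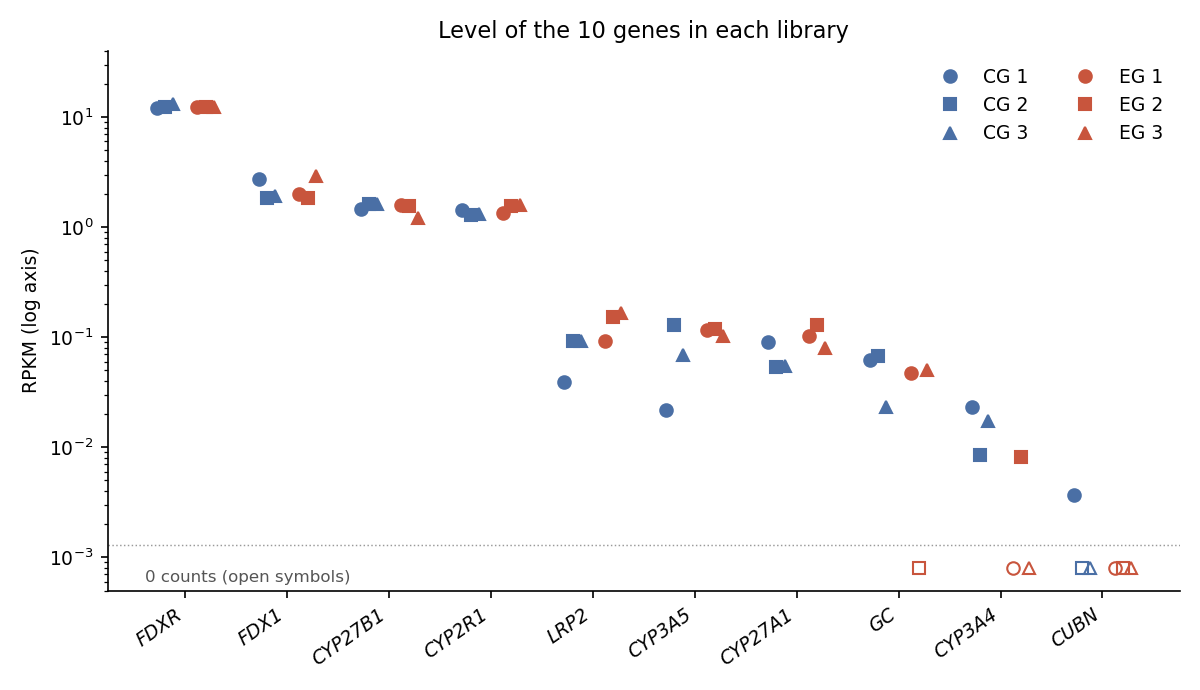
RPKM on a log axis of the 10 genes, ordered by mean level, in each CG (blue) and EG (red) library; open symbols under the dotted line mark 0 counts. FDXR lies near 12 RPKM, FDX1, CYP27B1 and CYP2R1 lie between 1.21 and 2.91 RPKM, and the other 6 genes lie under 0.165 RPKM.

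The receptor for the product of CYP27B1 moved while CYP27B1 did not pass the test. VDR had 3401, 3041 and 2960 counts in CG and 4883, 5178 and 4131 in EG. It rose from 80.8 ± 0.741 CPM in CG to 133 ± 6.16 CPM in EG (SD, n = 3 in both groups), and its log2 fold change was 0.72 (SE 0.0458, adjusted p = 1.94e-08 by edgeR). The ratio of VDR to CYP27B1, on the RPKM scale within a library, was 10.1, 8.82 and 8.88 in CG and 15.2, 15.2 and 18.0 in EG. This ratio was chosen with 3 others after their values were seen. Its groups did not overlap, with exact permutation p = 0.1, the smallest the design allows for 3 against 3, and 0.4 after adjustment over the 4 ratios. The ratio of CYP27B1 to CYP2R1 was 1.17 ± 0.130 in CG and 0.983 ± 0.215 in EG (SD, n = 3, exact permutation p = 0.2, adjusted p = 0.4). The ratio of FDXR to FDX1 was 6.01 ± 1.43 in CG and 5.69 ± 1.27 in EG, and that of FDX1 to CYP27B1 was 1.40 ± 0.429 and 1.62 ± 0.673 (SD, n = 3; exact permutation p = 0.5 and adjusted p = 0.5 for both).

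Around the 10 genes, 45 further genes of the pathway were followed in 5 lists, of which 39 were in the table and 34 were tested. Of these, 7 were higher and 4 were lower in EG, or 32.4%, near the 33.8% of all genes tested. Their median log2 fold change was 0.024, beside -0.011 over all genes tested and 0.15 over the 6 tested genes of the 10. The last value is over the genes that passed the filter only. UGT1A3 and UGT1A4, both among the 4 lower genes, share 1478 exon bases, so their calls are not separate results. Beyond the genes with the smallest p in each direction, the remaining called genes, RXRB, AMN and DAB2 are named after their values were seen.

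In the list of receptors, VDR and PDIA3, a protein disulfide isomerase, rose, and RXRA, the partner with which VDR binds DNA, fell. RXRA went from 34.7 ± 2.27 CPM in CG to 26.9 ± 3.38 CPM in EG (SD, n = 3 in both groups), and its log2 fold change was -0.37 (SE 0.0863, adjusted p = 0.00429 by edgeR). PDIA3 had a log2 fold change of 0.31 (adjusted p = 1.06e-05 by edgeR). PDIA3 shares 627 exon bases with ELL3, and RXRB shares 244 with SLC39A7, both on the opposite strand. RXRB had -0.26 (adjusted p = 0.0545 by edgeR), and it was called lower in 4 of 14 other settings, with adjusted p = 0.0282 with upper-quartile factors, 0.0267 with library sizes alone, 0.04995 with limma after adding 0.1, and 0.0352 without EG replicate 1. RXRG and CYP24A1, the enzyme that inactivates vitamin D, were not analysed here.

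Among the 12 genes of electron transfer and iron-sulfur assembly, 2 were higher and 0 were lower by edgeR, or 16.7%, beside 33.8% of all genes tested. Their median log2 fold change was -0.053. At an unadjusted p under 0.05 by edgeR, 3 were higher and 0 lower, where 42.2% of all genes tested were under that limit. POR, the microsomal reductase that serves CYP2R1 and the CYP3A enzymes, rose from 26.4 ± 0.856 CPM in CG to 33.5 ± 1.59 CPM in EG (SD, n = 3 in both groups), and its log2 fold change was 0.35 (SE 0.0640, adjusted p = 7.24e-04 by edgeR). CYB5A, cytochrome b5, another microsomal electron donor, had a log2 fold change of 0.22 (adjusted p = 0.00771 by edgeR), and was not called with limma on log2 RPKM values (0.16, adjusted p = 0.0789 after adding 1, and 0.17, adjusted p = 0.0764 after adding 0.1). The mitochondrial donors FDXR and FDX1 had estimates of 0.021 and 0.093, and a difference between donors of the 2 compartments was not tested.

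Of the 10 other P450 genes, 4 were tested and 1 was called, or 25%, beside 33.8% of all genes tested. CYP51A1, the lanosterol demethylase of cholesterol synthesis, rose from 76.9 ± 2.70 CPM in CG to 116 ± 6.55 CPM in EG (SD, n = 3 in both groups), and its log2 fold change was 0.59 (SE 0.0514, adjusted p = 5.92e-07 by edgeR). It shares 3211 of its 4074 exon bases with LRRD1 on the same strand, so the reads of the pair cannot be told apart. CYP11B1, CYP7B1 and CYP3A7 did not pass the filter, with at most 1, 1 and 11 counts in a library.

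The endocytic list, which holds the relatives and partners of LRP2, had 2 genes higher and 1 lower among 11 tested. This was 27.3%, beside 33.8% of all genes tested, and the median log2 fold change of the list was 0.0036. LRPAP1, the chaperone that keeps LRP2 and its relatives free of ligand during their synthesis, rose in every EG library above every CG library. It had 81.1, 76.9 and 78.9 CPM in CG and 136, 131 and 139 CPM in EG, a log2 fold change of 0.78 (SE 0.0446, adjusted p = 6.62e-09 by edgeR).

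Of the relatives of LRP2, LRP8 rose and LRP1 fell. LRP8, a receptor of reelin, had a log2 fold change of 0.33 (adjusted p = 6.09e-05 by edgeR). LRP1, a scavenger receptor of broad ligand range, was at -0.42 (adjusted p = 0.0179 by edgeR), and lost its call without CG replicate 1 (-0.24, adjusted p = 0.110), without EG replicate 1 (-0.39, adjusted p = 0.0638) and without EG replicate 2 (-0.38, adjusted p = 0.0705). It was also not called with limma on log2 RPKM values, with adjusted p = 0.105 after adding 1 and 0.120 after adding 0.1. AMN, the membrane anchor of cubilin, was listed at 3.52 ± 0.520 CPM in CG and 3.67 ± 0.0528 CPM in EG (SD, n = 3 in both groups), and its log2 fold change was 0.064 (adjusted p = 0.796 by edgeR). It shares 761 of its 4646 exon bases with the far more abundant CDC42BPB on the opposite strand. The strand setting of the counting is not known, and whether AMN holds reads of that gene was not tested. Of other opposite-strand pairs, CYP51A1-AS1 shares 410 exon bases with CYP51A1 and had mean counts of 5.33 in CG and 10 in EG. RP4-784A16.1 shares 467 with LRP8 and had 5.67 and 3.33, whereas ELL3, beside PDIA3, had 902 and 1084. DAB2, the adaptor of LRP2, had -0.41 (SE 0.314, adjusted p = 0.355).

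In the list of conjugation and CYP3A regulation, UGT1A4 and UGT1A3, which glucuronidate 25(OH)D, fell, with log2 fold changes of -1.18 (SE 0.115, adjusted p = 1.86e-06) and -1.20 (SE 0.119, adjusted p = 2.22e-06 by edgeR). UGT1A4 was at 14.5 ± 0.920 CPM in CG and 6.44 ± 0.995 CPM in EG (SD, n = 3 each). The genes of the UGT1A cluster share their last exons, with 1478 exon bases common to UGT1A3 and UGT1A4, so these values stand for the cluster and not for either gene. NR1I2, which encodes PXR, and SULT2A1, a sulfotransferase, had at most 2 counts in a library and did not pass the filter. HNF4A was not analysed here.

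**Figure D3:**
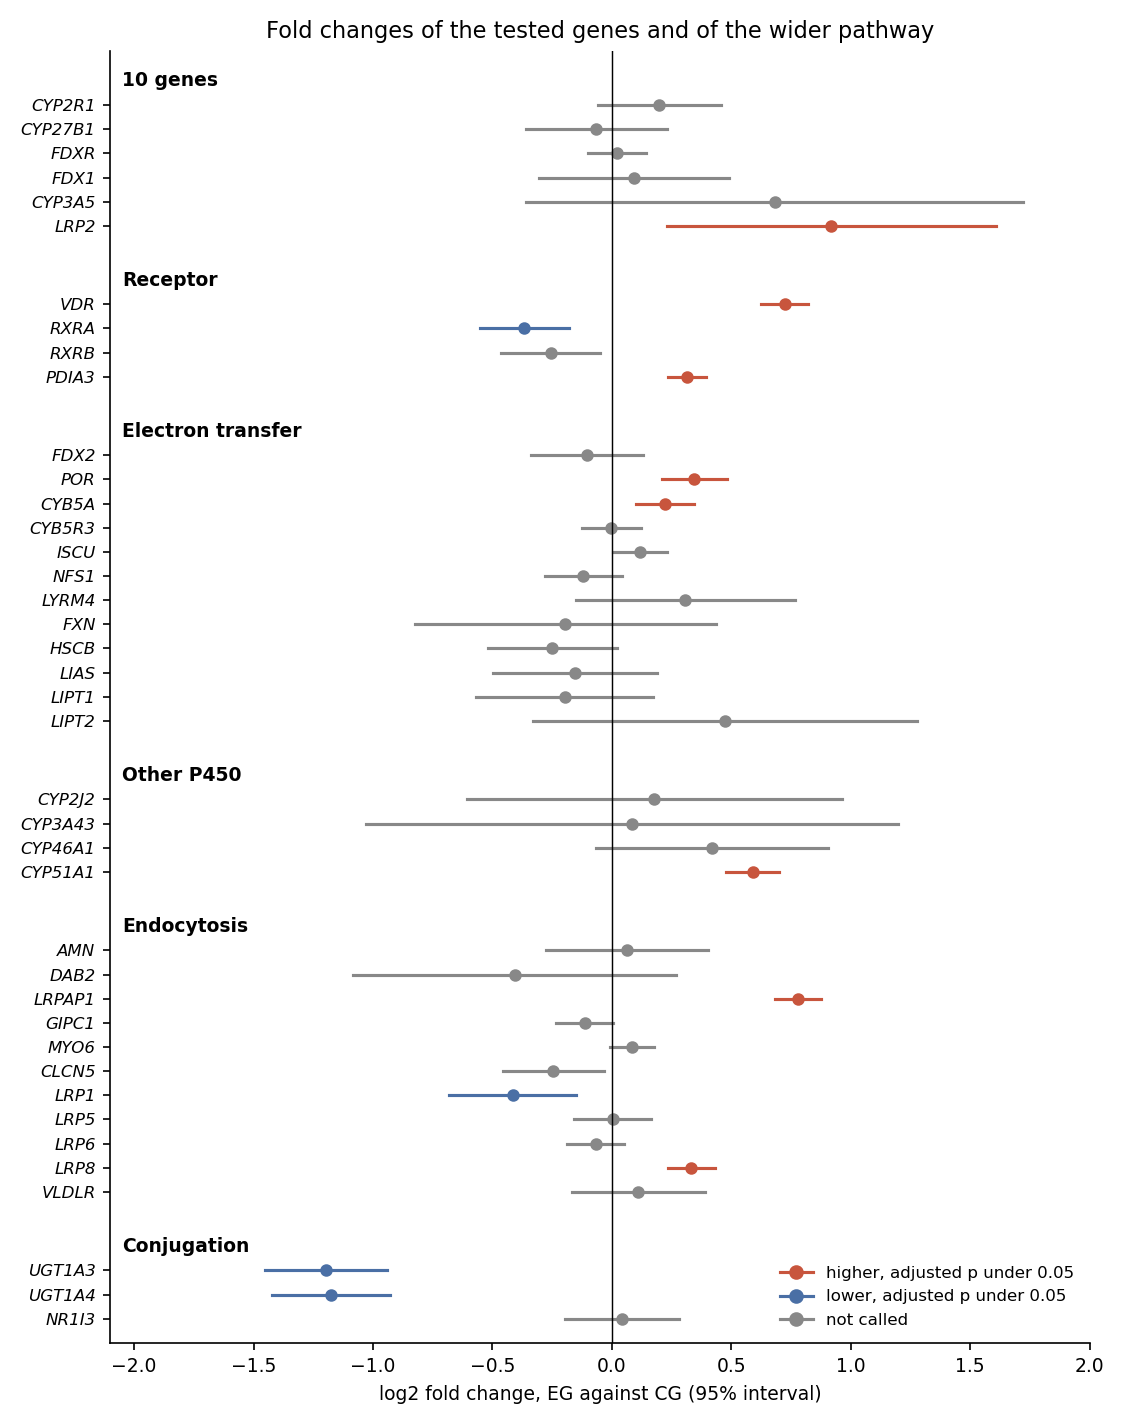
Log2 fold change of EG against CG (horizontal axis) with its 95% interval for the 6 tested genes and the 34 tested genes of the 5 lists; red and blue mark genes called higher and lower at an adjusted p under 0.05. LRP2 is the only red point of the first group and has an interval from 0.23 to 1.61, whereas VDR and LRPAP1 have narrow ones.

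By root mean square difference of centred log2 CPM over the 6 libraries, the genes most like CYP27B1 among 14225 compared were ACD (0.0310), RP11-680A11.5 (0.0415) and HSD11B2 (0.0437), where the median over all was 0.203. All 3 shared the low EG replicate 3 of CYP27B1, and ACD was at 13.3, 15.1 and 15.2 CPM in CG and 14.6, 15.0 and 11.3 CPM in EG. For LRP2 the nearest were CMTM1 (0.162), AC005932.1 (0.244) and RP11-98D18.9 (0.284), with a median of 0.679. CMTM1 was at 0.864, 1.72 and 1.68 CPM in CG and 2.02, 2.65 and 2.67 CPM in EG. It shared the low first library of LRP2 in both groups, as did AC005932.1 and RP11-98D18.9. These likenesses are over 6 points and include the difference between the groups. The genes were picked by this likeness, so the low libraries they share follow from the choice.

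**Figure D4:**
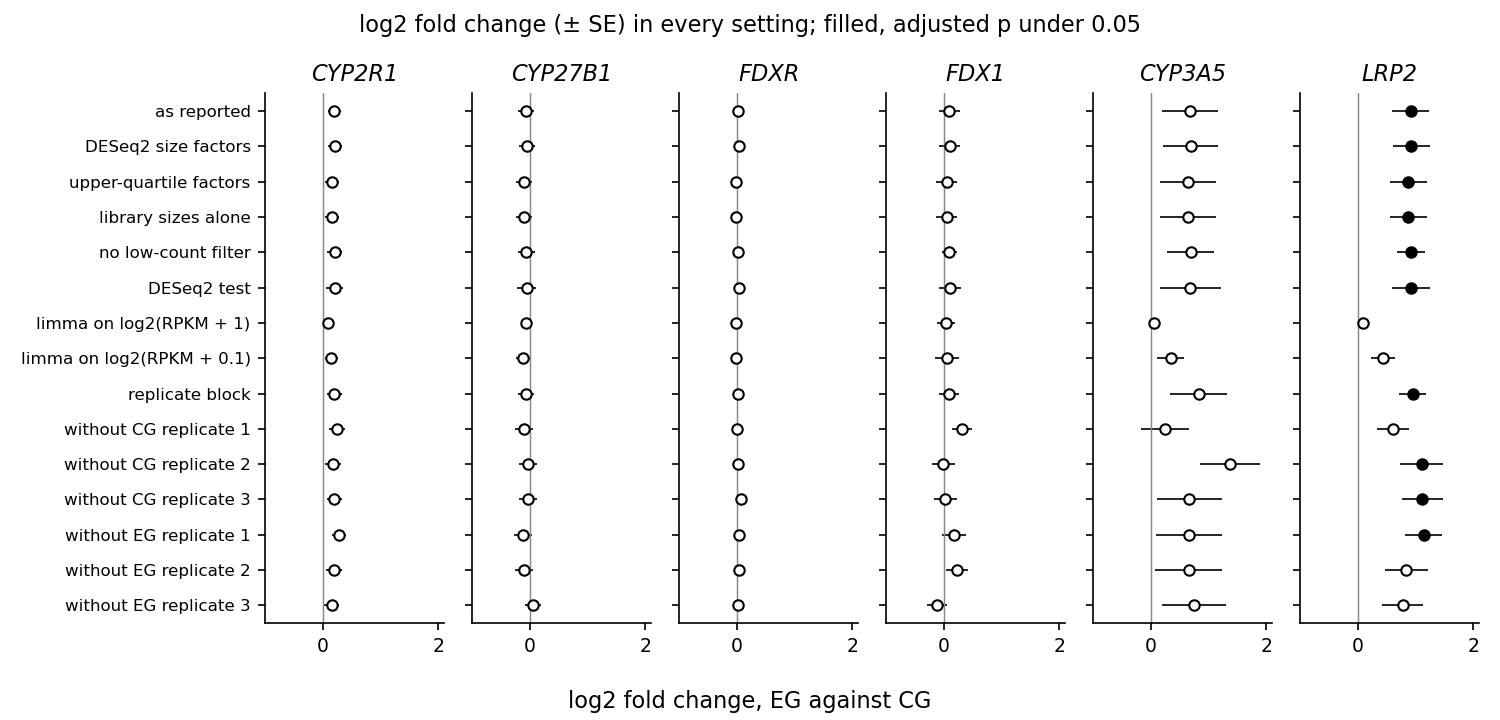
Log2 fold change of EG against CG (horizontal axis, ± SE) of the 6 tested genes as reported and under 14 other settings (rows), with filled points at an adjusted p under 0.05. LRP2 is above 0 in every row and filled as reported and in 9 of the 14 others, CYP3A5 moves most with single CG libraries, and no other gene is filled in any row.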

How the data were processed

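The mRNA of 6 MDA-MB-453 libraries, 3 in each group, was sequenced in paired-end mode. The authors deposited whole-number read counts per gene without normalization, made, per the submitters' processing notes, with Trimmomatic 0.36 and featureCounts of Subread 1.5.1 on GRCh38 (the notes also name edgeR 3.12.1); the aligner, the annotation release, the strand setting of the counting and its handling of reads on several genes are not given in the sources used here. The UGT1A genes, which share exons, carry nearly equal counts, so reads on shared exons appear to count for several genes, and values of overlapping genes carry that limit. The authors also deposited RPKM values, which equal the count divided by gene length and library total (largest relative difference 2.23e-13). Depth was 33268860 to 40928176 counts, and floors (3 counts) and intervals of low counts cover counting error only.

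Groups and replicates came from the sample titles. Counts were tested in R 4.3.3 with edgeR 4.0.16 (TMM, default low-count filter with a minimum count of 10, quasi-likelihood test, Benjamini-Hochberg adjustment over 18183 genes), after a check on simulated data. Alternatives were other scaling factors, no filter, DESeq2 1.42.0, limma 3.58.1 on log2 RPKM with 1 or 0.1 added, a replicate block, the limits of the study, TPM computed from the counts, and each library left out in turn. Single values used exact two-sided permutation tests (Python 3.11.15, scipy 1.17.1). Named were all 10 genes, the called gene with the smallest p in each direction of each list, VDR, CYP24A1, list genes below the filter, and the 3 genes most like CYP27B1 and LRP2 among genes with a mean of at least 50 counts. The members and lists were chosen with earlier results of these data known. Exon overlaps used the positions in the count table, primers were matched to GENCODE 29, and promoters were RefSeq's. CYP27B1 and GC were not matched in the promoter table. A few further genes of the lists are not reported here and were left out of every list count and sum.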

Additional observations from a re-analysis of the deposited data

How the results depend on the processing

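The order of the 10 genes by level was the same with TPM. Of 84 log2 fold changes of the 6 tested genes under 14 settings, 71 kept their direction and their side of the threshold, 8 turned direction, all in genes not called, and 5 lost the call, all of LRP2. LRP2 was not called with limma on log2(RPKM + 1) (0.080, adjusted p = 0.188) or on log2(RPKM + 0.1) (0.44, adjusted p = 0.157). The added value understates the change of a gene at this level, and whether that accounts for the lost call of LRP2 was not tested. Its adjusted p over settings other than leaving a library out ran from 0.00126 to 0.188. Leaving out 1 library at a time, LRP2 ran from 0.60 to 1.14, CYP27B1 from -0.13 to 0.053, CYP2R1 from 0.15 to 0.28, CYP3A5 from 0.24 to 1.37, FDXR from -0.0042 to 0.071, FDX1 from -0.12 to 0.31 and AMN from -0.015 to 0.19 in log2 fold change, and 0 or 1 of the 10 genes was called higher. FDXR turned to -0.021 with upper-quartile factors, -0.023 with library sizes alone, and -0.021 and -0.022 with limma after adding 1 and 0.1. With limma, 0 of the 10 genes were called. At the limits of the study 0 of the 10 genes were called, beside 731 genes higher and 478 lower over the whole table. Of the list genes, 0 were called higher and 2 lower, namely UGT1A3 and UGT1A4, which share exons. Upper-quartile factors and library sizes alone called 7 list genes lower in place of 4. Over all 34 tested list genes and the same 14 settings, named in the text or not, 22 of 476 log2 fold changes turned direction, in 6 genes and in 0 of those called, 7 lost a call and 13 gained one. A total of at least 10 counts in place of the filter would admit 8 of the 10 genes.

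Over all genes tested, same-numbered libraries of the groups did not deviate together (correlations -0.0721, -0.012 and -0.046). No library correlated best with that of its own number, which cannot show whether the cultures were run in pairs. For LRP2, replicate 1 was the lowest library of both groups, at 0.624 CPM in CG and 1.54 CPM in EG. Its SE was 0.239 with the replicate block and 0.320 without it. With the replicate block, 5953 genes were called, 3057 of them higher, in place of 6142, and LRP2 was the only one of the 10 (log2 fold change 0.95, adjusted p = 0.0102); no call among the 10 genes changed. At 0 to 6 counts a library, CYP3A4, GC and CUBN are limited by depth.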
